A study of Mus musculus with 18 samples.

Results

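Voltage-gated sodium channel genes were followed in mice in pain, in the BNST, a bed nucleus along the stria terminalis, and in the prelimbic part of the medial prefrontal cortex (mPFC). The 8 genes are the pore-forming subunits Scn1a, Scn2a, Scn3a, Scn8a and Scn7a and the auxiliary subunits Scn2b, Scn3b and Scn4b. They were taken by symbol from a table of 55401 gene identifiers, and all 8 were found there and passed the filter on low counts, which left 18994 genes. Messenger RNA was sequenced from adult male wild-type C57BL/6 mice in 6 groups of 3 libraries, 18 in all. Formalin-injected mice were a model of acute pain and were killed 24 h after an injection into the sole of the hind paw. Mice injected there with complete Freund's adjuvant (CFA), a model of persistent pain, were killed at 72 h. Control mice had neither injection by the sample labels and the methods, whereas the study's figure legends call them sham, so it is uncertain whether they were injected with a vehicle. Agent and collection time cannot be told apart, and without a vehicle injection nor can an effect of the agent and that of being injected. By the methods, both regions were dissected from each brain, so that BNST and mPFC libraries of a treatment share mice. For controls they do so only in part, as the animal numbers were 1, 2 and 4 for BNST and 2, 3 and 4 for mPFC.

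Voltage-gated sodium channels open on depolarization and carry the inward current of the action potential. Each channel has an α subunit that forms the pore, joined by β subunits that modify gating and act as cell adhesion molecules. In the brain, Scn1a (Nav1.1) is best known from inhibitory interneurons, Scn2a (Nav1.2) and Scn8a (Nav1.6) from axon initial segments and nodes of excitatory cells, and Scn3a (Nav1.3) from development. Scn7a (Nax) lacks voltage gating and senses extracellular sodium in glia of the circumventricular organs. Among the β subunits, Scn4b (β4) is abundant in striatal projection neurons and is linked to resurgent sodium current.

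Libraries held 14781315 to 23408503 counts. Levels are given as CPM, the count of a gene relative to the TMM-scaled total of its library, and a gene was called where its edgeR adjusted p was under 0.05 and its absolute log2 fold change was above 0.5. The labelled regions differed in their markers. The summed level of 10 BNST neuron markers was 427 to 793 CPM in BNST libraries and 39.2 to 58.8 CPM in mPFC libraries, and that of 9 cortical pyramidal neuron markers was 195 to 666 CPM in BNST libraries and 2387 to 2867 CPM in mPFC libraries. BNST libraries also differed widely in markers of the choroid plexus. Their 10 choroid plexus markers summed to 2941 to 8893 CPM after formalin, 183 to 17820 CPM after CFA and 36.5 to 750 CPM in controls, and CFA replicate 2 had the 17820 CPM. BNST control replicates 1 and 2 were sequenced in lane 1 and BNST formalin replicate 1 in lane 3, whereas all other libraries were in lane 2. In these bulk libraries, fewer cells of a type and less RNA per cell cannot be told apart.

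On GRCm38 with the GENCODE annotation, Scn3a (chr2:65457118-65567627, minus strand), Scn2a (chr2:65620771-65767447, plus strand), Scn1a (chr2:66270778-66440840, minus strand) and Scn7a (chr2:66673425-66784914, minus strand) lie near each other on chromosome 2. Scn3b (chr9:40269217-40291618), Scn2b (chr9:45117782-45130070) and Scn4b (chr9:45138395-45154152), all on the plus strand, lie on chromosome 9. Scn8a (chr15:100869858-101045938, plus strand) stands alone on chromosome 15. No exon of these 8 genes shares a base with an exon of another annotated gene.

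Of the chromosome 2 cluster, Scn7a was called higher in the BNST after either agent and Scn3a lower after CFA, while Scn2a and Scn1a were not called. No window was found for Scn3a. The 250 bases before the RefSeq start of the other 3 are shown, with each CG dinucleotide in capitals. They are RefSeq promoter windows on GRCm38.p6, read 5′ to 3′ on the strand of the gene. Scn7a is at chr2:66784911-66785160 (minus strand), Scn2a at chr2:65620519-65620768 (plus strand, the upstream start) and Scn1a at chr2:66440838-66441087 (minus strand).
Scn7a: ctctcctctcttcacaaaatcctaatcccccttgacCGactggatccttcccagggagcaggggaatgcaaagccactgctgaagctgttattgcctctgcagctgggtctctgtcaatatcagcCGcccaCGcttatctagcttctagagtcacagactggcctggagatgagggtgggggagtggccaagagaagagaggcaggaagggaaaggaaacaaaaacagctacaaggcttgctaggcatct
Scn2a: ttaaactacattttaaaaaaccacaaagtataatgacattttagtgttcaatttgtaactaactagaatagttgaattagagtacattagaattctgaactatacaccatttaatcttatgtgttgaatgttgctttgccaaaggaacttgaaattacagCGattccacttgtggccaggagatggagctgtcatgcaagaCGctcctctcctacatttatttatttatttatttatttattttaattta
Scn1a: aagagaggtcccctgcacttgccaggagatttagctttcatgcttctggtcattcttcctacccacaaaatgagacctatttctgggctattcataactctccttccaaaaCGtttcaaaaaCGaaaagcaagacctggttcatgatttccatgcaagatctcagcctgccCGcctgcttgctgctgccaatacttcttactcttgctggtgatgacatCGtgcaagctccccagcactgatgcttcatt
Scn7a had 3 CG dinucleotides in this window, Scn2a 2 and Scn1a 4, against a median of 6 over 32841 windows of the same length. The Scn2a window had 29.6% G and C, the lowest of these 3, with 53.2% for Scn7a and 46.8% for Scn1a. Of 3 motifs searched on both strands, the Sp1 box GGGCGG was found only in the Scn7a window (32.8% of all windows hold it) and the CCAAT box only in the Scn1a window (33.9%), while the TATA box TATAAA (12.4%) was in none of the 3. Windows were found for 6 of the 8 genes. Those of Scn4b (23 CG dinucleotides) and Scn8a (30 at its upstream start) were the richest in CG and, like that of Scn2b (1), lie wholly (Scn8a) or in part within the annotated gene. These counts are descriptions of the windows, with no test of promoter use.

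TPM values, which correct the share of a gene in its library for exon length, gave the order of the genes. In control mPFC, Scn2b led with 278 ± 27.5 TPM (SD, n = 3 for this and the following values), then came Scn2a (149 ± 15.8 TPM), Scn8a (119 ± 14.1 TPM), Scn3b (110 ± 6.97 TPM), Scn1a (54.5 ± 8.19 TPM), Scn4b (52.8 ± 14.2 TPM), Scn3a (20.9 ± 0.681 TPM) and Scn7a (4.59 ± 0.254 TPM). The ranges of Scn8a and Scn3b overlapped, as did those of Scn1a and Scn4b, and the other neighbours in this order did not overlap. In control BNST, Scn4b had the highest mean and by far the widest spread (451 ± 248 TPM), and its range contained that of Scn2b (316 ± 23.2 TPM). Scn3b (154 ± 14.0 TPM), Scn2a (114 ± 4.28 TPM), Scn8a (63.9 ± 2.61 TPM), Scn1a (59.5 ± 9.47 TPM), Scn3a (36.0 ± 2.08 TPM) and Scn7a (4.48 ± 0.949 TPM) followed. There, Scn8a and Scn1a could not be ordered beyond their spread.

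**Figure D1:**
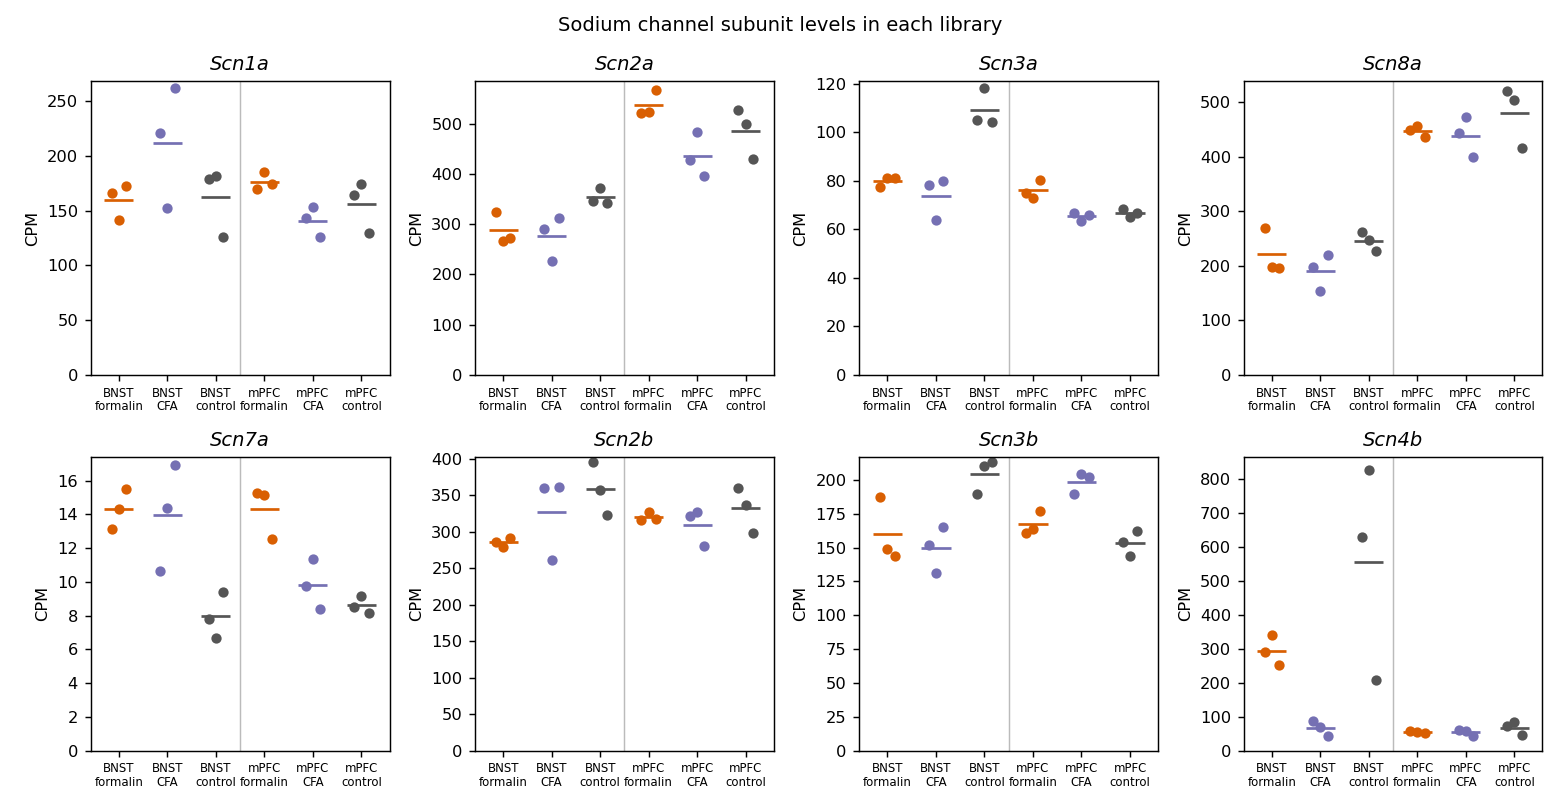
Level of each subunit gene in each library, in CPM on an axis from 0, with 3 libraries (points) and their mean (line) in each of the 6 groups, BNST left of the grey line and mPFC right of it. Scn8a stood at 154 to 269 CPM in BNST libraries and at 398 to 520 CPM in mPFC libraries, while Scn4b was far more variable in the BNST, at 41.5 to 825 CPM.

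After CFA, the BNST had 3 of the 8 genes called, with Scn7a higher and Scn3a and Scn4b lower. Of all genes tested, 11.9% were called in this comparison (4.89% higher and 7.06% lower). The median change of the 8 genes was −0.36 on the log2 scale, beside 0.01 over all genes tested, and 5 of the 8 had every CFA library below every control library, as did 16.1% of all genes tested.

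Scn4b had 85.9, 69.1 and 41.5 CPM in the BNST of CFA mice, against 628, 825 and 207 CPM in control mice. The groups did not overlap, although control replicate 3 was far below the other controls. Its log2 fold change was −3.08 (SE 0.43, edgeR adjusted p = 0.00031). This call held without each library in turn (−3.47 to −2.68). Within lane 2, where control replicate 3 is the only BNST control, the change was −1.68 (adjusted p = 0.008, edgeR).

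Scn3a, the subunit best known from the developing brain, had 78.1, 63.8 and 79.9 CPM after CFA and 105, 118 and 104 CPM in controls. All CFA libraries were below all controls. The fall was −0.56 on the log2 scale (SE 0.08, edgeR adjusted p = 9.4e-05). Without CFA replicate 2 it was −0.47, which is under the minimum fold change.

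Scn7a, the sodium sensor, went the other way. It had 10.7, 14.4 and 16.9 CPM after CFA and 7.79, 6.69 and 9.41 CPM in controls, from 193 to 360 counts in CFA libraries and 118 to 152 in controls. The lowest CFA library was thus above the highest control. The log2 fold change was 0.81 (SE 0.17, edgeR adjusted p = 0.0023), and the call was lost in lane 2 (0.56, adjusted p = 0.093) and in a fit of the compared libraries alone (adjusted p = 0.078).

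The other 5 genes were not called in the BNST after CFA. Scn3b (−0.45, SE 0.1, edgeR adjusted p = 0.0038) and Scn2a (−0.36, SE 0.11, edgeR adjusted p = 0.034) were under 0.05 but did not reach the minimum fold change, and in both every CFA library was below every control. Scn3b was called without BNST control replicate 1 (−0.5), without BNST CFA replicate 3 (−0.53) and within lane 2 (−0.52). Scn3b had 152, 131 and 166 CPM after CFA and 190, 210 and 213 CPM in controls. Scn2a had 290, 226 and 312 CPM after CFA and 345, 372 and 342 CPM in controls. Scn8a was also below the controls in every CFA library, at 198, 154 and 220 CPM against 262, 247 and 227 CPM (−0.36, edgeR adjusted p = 0.057). Scn1a overlapped, with 221, 152 and 261 CPM after CFA and 179, 181 and 126 CPM in controls. Its log2 fold change was 0.38 (edgeR adjusted p = 0.13), and without CFA replicate 2, the library rich in choroid plexus markers, it was 0.57 (edgeR adjusted p = 0.016). Scn2b overlapped too (−0.13, edgeR adjusted p = 0.42).

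After formalin, 1 of the 8 genes was called in the BNST, where 0.3% of all genes tested were (0.195% higher and 0.105% lower). Scn7a had 13.1, 14.3 and 15.5 CPM in formalin mice, against 7.79, 6.69 and 9.41 CPM in the same 3 controls. The groups did not overlap, and the log2 fold change was 0.85 (SE 0.17, edgeR adjusted p = 0.045). Over the 18 fits that each left out 1 library, the log2 fold change was 0.74 to 0.99 (edgeR adjusted p up to 0.12). The call lay at the threshold, since leaving out any 1 of 14 libraries ended it. The 4 libraries whose removal kept it were BNST control replicate 3 and the 3 BNST CFA libraries. In lane 2 the value was 0.68 (adjusted p = 0.16), and with only the 9 BNST libraries in the fit the adjusted p was 0.39.

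Scn3a again fell below the controls in every library, at 77.7, 81.4 and 81.1 CPM after formalin and 105, 118 and 104 CPM in controls. Its log2 fold change of −0.45 (SE 0.08, edgeR adjusted p = 0.04) missed the minimum fold change. Scn2a (−0.29), Scn2b (−0.33) and Scn3b (−0.35) were likewise below all controls in every formalin library, as were 10.8% of all genes tested, with edgeR adjusted p of 0.18, 0.14 and 0.1. The median change of the 8 genes was −0.31, beside −0.04 over all genes tested. Scn8a (−0.15) and Scn1a (−0.02) overlapped with controls. Scn4b had 289, 341 and 252 CPM after formalin and 628, 825 and 207 CPM in controls, which overlapped through control replicate 3 (−0.91, edgeR adjusted p = 0.23). In lane 2, against that control alone, the change was 0.53, and without that control it was −1.31 (edgeR adjusted p = 0.03). As the formalin and CFA mice were set against the same controls, the 2 sets of changes are not independent of each other.

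**Figure D2:**
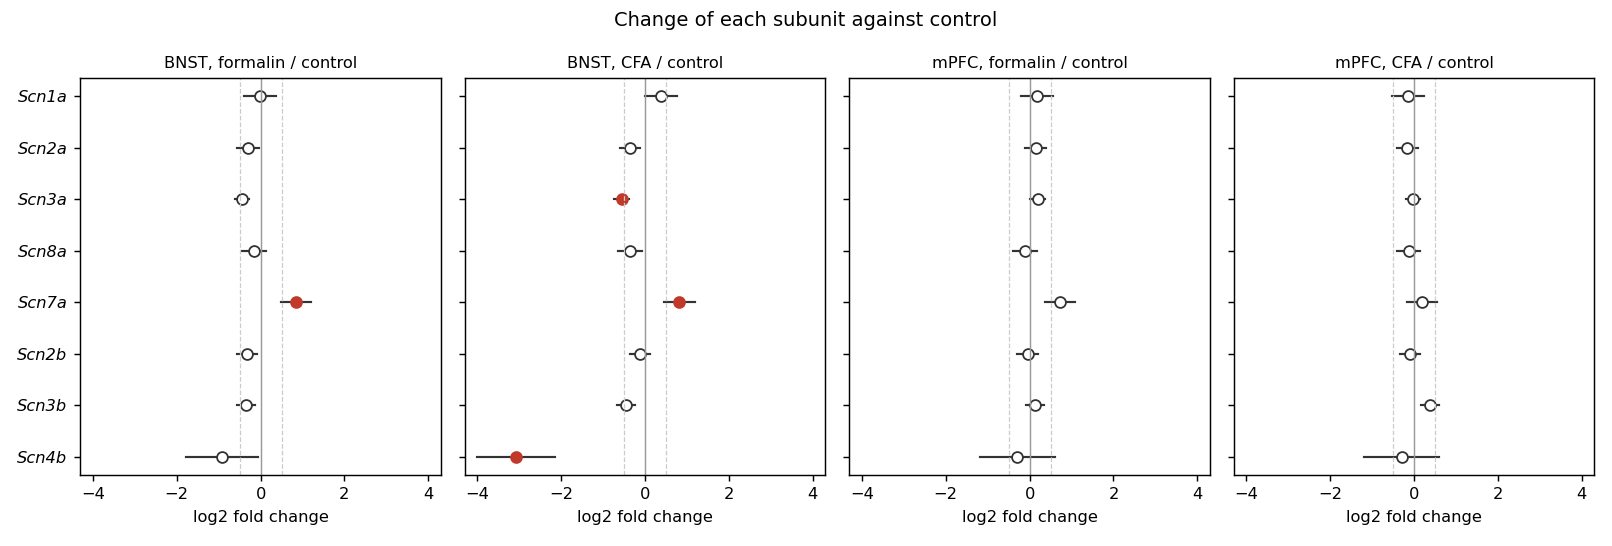
Log2 fold change of each subunit gene against control (horizontal axis) in BNST and mPFC after formalin and after CFA, with 95% confidence intervals (lines) and red points for called genes; dashed lines mark the minimum fold change. Called genes are Scn7a (0.85) for formalin in the BNST and Scn7a (0.81), Scn3a (−0.56) and Scn4b (−3.08) for CFA in the BNST, and none in the mPFC.

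Set against each other, the pain models differed in the BNST in 1 of the 8 genes, with 6.87% of all genes tested called (3.91% higher and 2.96% lower after formalin than after CFA). Scn4b had 289, 341 and 252 CPM after formalin, against 85.9, 69.1 and 41.5 CPM after CFA. The lowest formalin library was well above the highest CFA library (2.17, SE 0.41, edgeR adjusted p = 0.0052). The call was lost with only the 9 BNST libraries in the fit (adjusted p = 0.06). For Scn7a, which was above control in both models, the difference between formalin and CFA was 0.03 with a 95% confidence interval from −0.32 to 0.39, and for Scn3a it was 0.11 (−0.06 to 0.29). Scn1a differed by −0.4 (edgeR adjusted p = 0.13), and by −0.59 without BNST CFA replicate 2 (edgeR adjusted p = 0.011).

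Scn4b moved with a set of striatal projection neuron markers. The summed level of 12 striatal projection neuron markers, among them the dopamine receptors Drd1 and Drd2, was 1316 to 1833 CPM in the BNST after formalin, 313 to 679 CPM after CFA and 1471 to 3696 CPM in controls. All 12 were called lower after CFA than in controls, with a median of −2.67, beside 7.06% of all genes tested. Of the 12, 11 were called higher after formalin than after CFA, beside 3.91% of all genes tested. The list was chosen with earlier results of these data known. In mPFC libraries the sum was 271 to 336 CPM and none of the 12 was called between treatments. No marker of this list was at 0 in any group.

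Per 100 CPM of these markers, Scn4b amounted to 18.8, 18.6 and 19.2 CPM in the BNST of formalin mice, 17.4, 10.2 and 13.2 CPM in CFA mice and 23.1, 22.3 and 14.1 CPM in control mice. The CFA and control ranges overlapped on this scale only through control replicate 3, whereas those of Scn4b itself did not overlap. The mean ratio was 13.6 CPM in CFA mice and 19.8 CPM in control mice. In the mPFC the same ratio was 21.7, 19.1 and 18.5 CPM after formalin, 20.0, 17.7 and 13.2 CPM after CFA and 25.1, 30.7 and 15.6 CPM in controls. Control replicate 3 had the lowest ratio of the controls in both regions. The part of striatal tissue in the Scn4b result was not tested. Of 12196 candidate genes, those whose 6 group means lay nearest to Scn4b after centring were Drd1 (root mean square difference of 0.22 log2 units), Gm49702 (0.28) and Pde10a (0.28), a striatal phosphodiesterase. Drd1 and Pde10a are themselves on the list of 12.

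**Figure D3:**
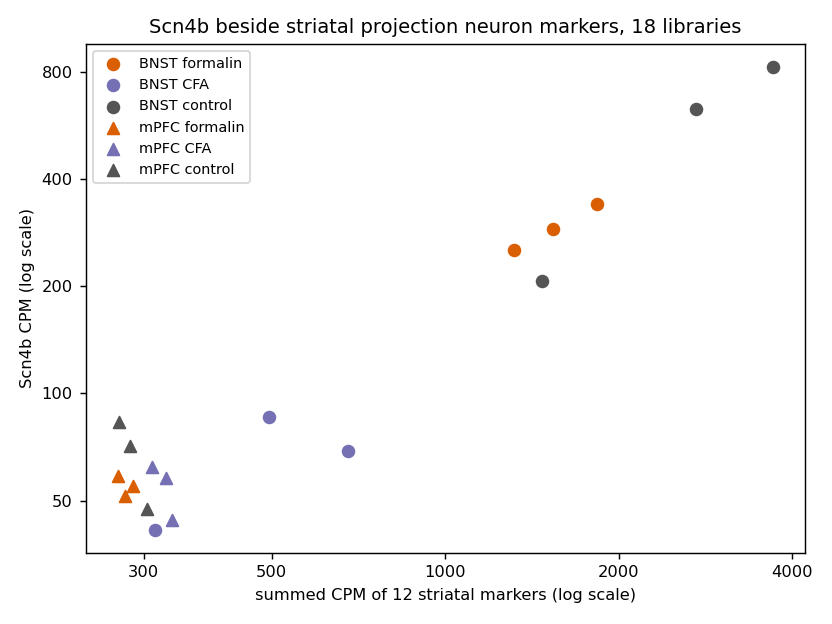
Scn4b level (CPM, vertical log axis) against the summed level of 12 striatal projection neuron markers (CPM, horizontal log axis) in each of the 18 libraries, circles for BNST and triangles for mPFC, coloured by treatment. The BNST formalin and control libraries (1316 CPM of markers and above) have 207 to 825 CPM of Scn4b, and the BNST CFA libraries (313 to 679 CPM) have 41.5 to 85.9 CPM, of which replicate 3 lies among the mPFC libraries (271 to 336 CPM).

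Some markers of other cell types were also called in the BNST. Of all genes tested there, 4.89% were higher and 7.06% lower after CFA, and 0.195% were higher after formalin. Of 9 markers of habenula and thalamus, 5 were called higher after CFA. Their sums overlapped, at 562 to 932 CPM after CFA and 241 to 572 CPM in controls. Of 10 astrocyte markers, Gfap, Gjb6 and S100b were higher after CFA, and Aqp4 was higher after formalin. The astrocyte sums overlapped, at 4820 to 5648 CPM after formalin, 5129 to 5643 CPM after CFA and 4073 to 5454 CPM in controls. Of 10 markers of all neurons, Nefl was higher and Rbfox3 lower after CFA, and the sums overlapped at 5270 to 6968 CPM after CFA and 5826 to 5947 CPM in controls. For Scn7a and Scn3a, the part of these tissues was not tested.

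In the mPFC, none of the 8 genes was called. After formalin, 0.269% of all genes tested were called there (0.0632% higher and 0.205% lower), after CFA 0.632% (0.337% higher and 0.295% lower), and between formalin and CFA 0.932% (0.374% higher and 0.558% lower). At an unadjusted p under 0.05 in edgeR, 2 of the 8 passed for formalin against control, 1 for CFA against control and 4 for formalin against CFA, beside 14.1%, 13.8% and 15.4% of all genes tested. DESeq2 called 1 of the 8, Scn7a, in formalin against control and in formalin against CFA, and none in CFA against control.

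Scn7a came nearest to the threshold. It had 15.3, 15.1 and 12.5 CPM in the mPFC of formalin mice, against 8.51, 9.19 and 8.18 CPM in control mice. All formalin libraries were above all controls (0.73, SE 0.17, edgeR adjusted p = 0.051), as for 13% of all genes tested. The adjusted p fell under 0.05 without BNST control replicate 2 or 3 or any of the 3 BNST CFA libraries (0.034 to 0.046). In CFA mice Scn7a had 9.75, 11.4 and 8.37 CPM, which overlapped with controls (0.19, edgeR adjusted p = 0.69), and formalin exceeded CFA in every library (0.54, edgeR adjusted p = 0.1). Scn3b showed a different order, with 161, 164 and 177 CPM after formalin, 189, 205 and 202 CPM after CFA and 154, 144 and 162 CPM in controls. Its CFA libraries were above all controls (0.37, SE 0.1, edgeR adjusted p = 0.09), as for 13.4% of all genes tested. Scn3a had 73.1 to 80.1 CPM in the mPFC after formalin, 63.6 to 66.7 CPM after CFA and 65.2 to 68.6 CPM in controls. Its formalin libraries were above all CFA libraries (0.22, edgeR adjusted p = 0.17) and all controls (0.19, edgeR adjusted p = 0.28), and neither difference was called. Scn1a, Scn2a, Scn8a, Scn2b and Scn4b had log2 fold changes of −0.3 to 0.18 against control in the 2 pain models.

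Whether a change differed between the regions was tested as an interaction, the change in the BNST minus that in the mPFC. For formalin, 1 of the 8 genes passed, with 0.158% of all genes tested (0.0474% higher and 0.111% lower). Scn3a changed by −0.45 in the BNST and by 0.19 in the mPFC, a difference of −0.64 (SE 0.11, edgeR adjusted p = 0.027). Over the 18 fits that each left out 1 library, the difference was −0.67 to −0.58 (edgeR adjusted p up to 0.1). This call ended without any 1 of 9 libraries, which were the 6 formalin libraries, BNST control replicate 2 and mPFC control replicates 2 and 3. With the animal as a block, since the regions share mice, the difference was −0.64 and not called (edgeR adjusted p = 0.12), and 0.0263% of all genes were. It also ended within lane 2 (−0.53, adjusted p = 0.057), where Scn3b passed instead (−0.65, adjusted p = 0.032).

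For CFA, 3 of the 8 genes passed, with 4.17% of all genes tested (1.15% higher and 3.02% lower), and also 3 with the animal as a block, with 2.4% of all genes. Scn3a changed by −0.56 in the BNST and by −0.03 in the mPFC (difference −0.53, SE 0.11, edgeR adjusted p = 0.009). Scn3b changed by −0.45 in the BNST and by 0.37 in the mPFC (difference −0.82, SE 0.14, edgeR adjusted p = 0.002), although neither change was called by itself. Scn4b changed by −3.08 in the BNST and by −0.3 in the mPFC (difference −2.78, SE 0.58, edgeR adjusted p = 0.015). In lane 2 the Scn4b difference was −1.37 (adjusted p = 0.093; 0.068 with only the groups compared in the fit) and the Scn3a difference was −0.47, under the minimum fold change, whereas Scn3b kept its call (−0.89, adjusted p = 0.00099). Without BNST control replicate 2 the Scn3a difference was −0.47, and without BNST CFA replicate 2 it was −0.44, both under the minimum fold change. For Scn7a the difference was 0.12 for formalin (95% confidence interval −0.39 to 0.63) and 0.63 for CFA (0.11 to 1.14), and neither passed (edgeR adjusted p = 0.85 and 0.15).

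Of the 8 genes, Scn4b and Scn8a had the largest differences between the regions in control and formalin mice, and Scn8a and Scn2a in CFA mice. In control mice 3 of the 8 genes were called between BNST and mPFC, with 26.6% of all genes tested (14.7% higher and 12% lower). In formalin mice it was 3 of 8, with 33.3% of all genes (18.8% higher and 14.5% lower), and in CFA mice 4 of 8, with 38.1% (20.7% higher and 17.4% lower). The counts of members are thus not far from the background.

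Scn8a, the main channel of the mature initial segment, was lower in the BNST under each treatment. It had 269, 198 and 197 CPM in the BNST and 449, 456 and 436 CPM in the mPFC of formalin mice (−1.02, SE 0.13, edgeR adjusted p = 7.4e-06). In CFA mice it had 198, 154 and 220 CPM in the BNST and 444, 472 and 398 CPM in the mPFC (−1.2, SE 0.13, edgeR adjusted p = 1.1e-06). In control mice it had 262, 247 and 227 CPM in the BNST and 520, 504 and 416 CPM in the mPFC (−0.97, SE 0.13, edgeR adjusted p = 1.7e-05). The regions did not overlap under any treatment. The same held for 59.3% of all genes tested in formalin mice, 60.4% in CFA mice and 48.5% in controls. The Scn8a calls held in all alternatives. The genes nearest to Scn8a in their 6 group means were Cyfip2, Strn4 and Plppr2, each at a root mean square difference of 0.04 log2 units. Markers of all neurons were also lower in the BNST, 4 of 10 in controls (median −0.43), 7 of 10 after formalin (−0.75) and 3 of 10 after CFA (−0.31). Their part in the Scn8a difference was not tested.

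Scn2a was called lower in the BNST of formalin mice (−0.9, SE 0.12, edgeR adjusted p = 5.3e-06) and of CFA mice (−0.66, SE 0.12, edgeR adjusted p = 0.00012). In controls its difference was −0.46 (edgeR adjusted p = 0.0039), under the minimum fold change (−0.54 and called without mPFC control replicate 3). All BNST libraries were below all mPFC libraries for Scn2a under each treatment. The same held for 29.5% of all genes tested in formalin mice, 29% in CFA mice and 23.2% in controls. Scn3a was called higher in the BNST only in controls (0.71, SE 0.08, edgeR adjusted p = 1.6e-06), and the difference was 0.07 in formalin mice and 0.18 in CFA mice. Scn4b was higher in the BNST of control mice (3.04, SE 0.43, edgeR adjusted p = 8.4e-05) and formalin mice (2.42, SE 0.42, edgeR adjusted p = 0.00037). In CFA mice it overlapped between the regions, at 41.5 to 85.9 CPM in the BNST and 44.2 to 62.0 CPM in the mPFC (0.26, edgeR adjusted p = 0.62). In lane 2, the control difference of Scn4b was 1.63 (adjusted p = 0.0058).

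Scn1a (0.59, SE 0.18, edgeR adjusted p = 0.011) and Scn7a (0.51, SE 0.17, edgeR adjusted p = 0.015) were called higher in the BNST of CFA mice, but for both the libraries of the regions overlapped. Both calls were lost without BNST CFA replicate 3 (0.4 for Scn1a and 0.35 for Scn7a), and that of Scn7a also without BNST CFA replicate 2 or mPFC CFA replicate 3 and with the animal as a block (0.49). Scn3b was above the mPFC in every BNST library of controls (0.41) and below it in every BNST library of CFA mice (−0.41), with edgeR adjusted p of 0.0028 and 0.0021 and both under the minimum fold change. Scn2b differed by 0.11 or less in controls and CFA mice and by −0.16 in formalin mice.

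**Figure D4:**
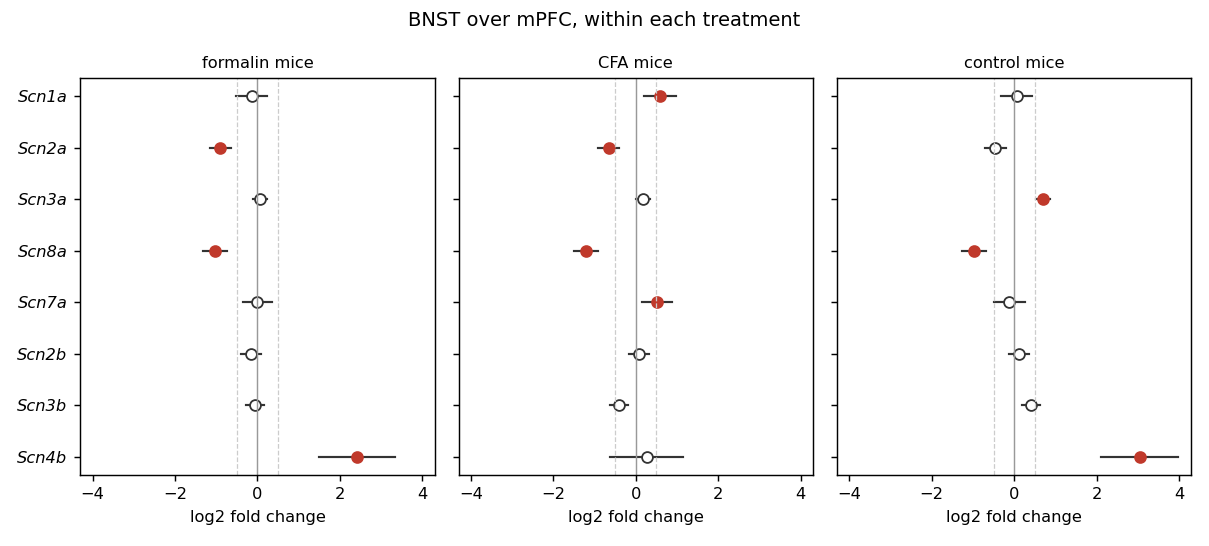
Log2 fold change of each subunit gene in BNST over mPFC (horizontal axis) in formalin, CFA and control mice, with 95% confidence intervals (lines), red points for called genes and dashed lines at the minimum fold change. Scn8a is at −1.02, −1.2 and −0.97, and Scn4b is at 2.42, 0.26 and 3.04.

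Composition within the family was taken from TPM in each library. Scn2a made up the largest share of α subunit transcripts in each group, with means of 35.9% to 44.7%. Scn8a had 23.5 ± 2.31% of them in the BNST after formalin, 20.0 ± 0.252% after CFA and 23.0 ± 1.03% in controls, and 30.1 ± 1.07%, 34.2 ± 0.373% and 34.2 ± 0.356% in the mPFC of the same treatments (SD, n = 3). Scn1a had 31.0 ± 2.51% in the BNST after CFA and 21.3 ± 2.78% in controls, and these ranges did not overlap (28.3% to 33.2% after CFA, 18.1% to 23.2% in controls). In TPM the α subunits together summed to 169 to 275 TPM in the BNST after CFA and 268 to 287 TPM in controls. Scn7a stayed the smallest share, at 3.32 ± 0.505% after formalin, 3.21 ± 0.88% after CFA and 1.62 ± 0.402% in controls in the BNST.

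Among the 3 β subunits, Scn4b took 39.3 ± 4.10% of the TPM in the BNST after formalin, 12.01 ± 4.21% after CFA and 46.0 ± 16.3% in controls (SD, n = 3). In the mPFC it took 10.01 ± 0.746% after formalin, 9.61 ± 1.17% after CFA and 11.9 ± 2.64% in controls. Scn2b had 63.2 ± 3.55% of the BNST pool after CFA and 36.0 ± 9.51% in controls, while its own level was not called as changed. A share moves when any other member of the pool moves, so the shares are not a separate measurement of each gene.

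**Figure D5:**
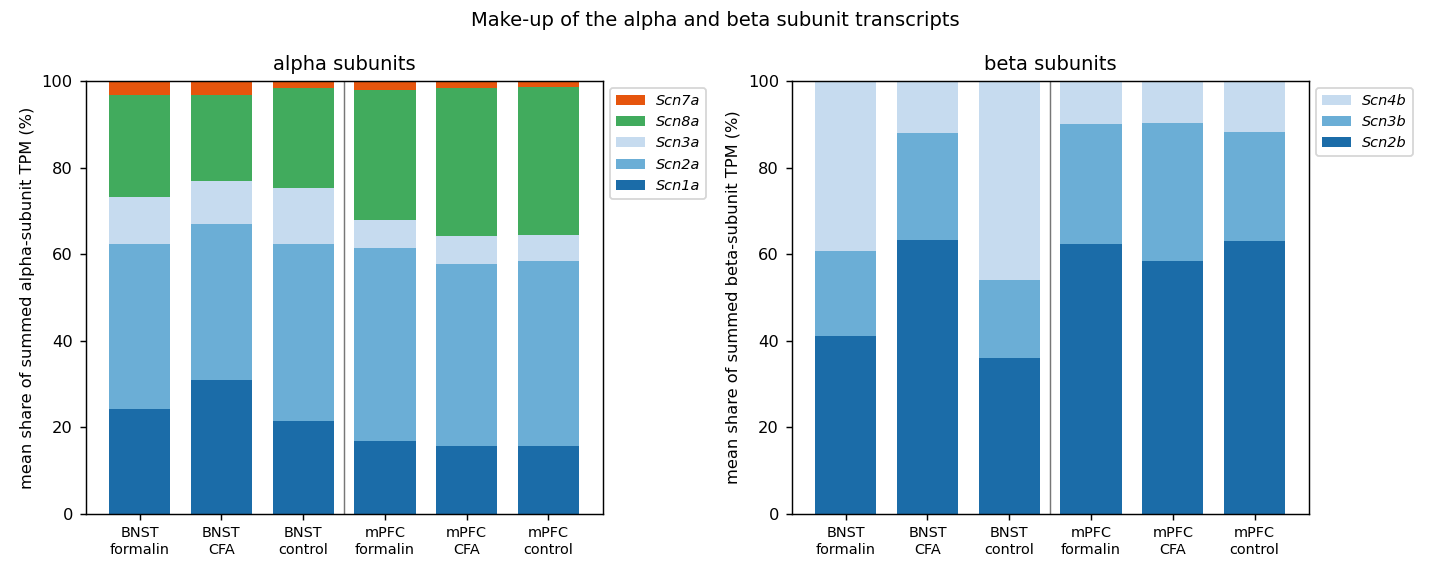
Mean share (%, vertical axis) of each gene in the summed TPM of the 5 α subunits (left) and of the 3 β subunits (right) in the 6 groups, as stacked bars of 3 libraries each. In the BNST after CFA the β pool is 63.2% Scn2b and 12.01% Scn4b, near its make-up in the mPFC, whereas in the BNST of controls Scn4b is 46.0%.

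Scn9a, Scn10a and Scn11a, pore-forming subunits known from sensory neurons, were not called between treatments in either region. Scn9a (Nav1.7) had 21.9 to 25.8 CPM in the BNST and 7.12 to 8.35 CPM in the mPFC after formalin, 26.2 to 34.1 CPM in the BNST and 5.61 to 8.80 CPM in the mPFC after CFA, and 29.1 to 37.0 CPM in the BNST and 5.67 to 10.6 CPM in the mPFC of controls. The BNST libraries were above the mPFC libraries under each treatment, as were those of 29.8% (formalin), 31.5% (CFA) and 25.3% (controls) of all genes tested. Scn9a was called higher in the BNST by 1.67 after formalin, 2.15 after CFA and 2.12 in controls on the log2 scale. It shares 1.41% of its exon bases with an antisense gene. Scn11a was called higher in the BNST under each treatment from few counts (at most 23 per BNST library), and Scn10a only in formalin mice (2.16).

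Of 17 partners of the channel and of the axon initial segment, 3 were called lower in the BNST after CFA than in controls and none higher, beside the 7.06% of all genes called lower. Among them were Sptbn4 (−0.55, edgeR adjusted p = 0.0015), which encodes βIV-spectrin of the initial segment, and Nedd4l (−0.73, edgeR adjusted p = 6.2e-05), a ubiquitin ligase of membrane channels. The median of the 17 was −0.25. In the other 5 comparisons between treatments within a region none of the 17 was called. Between regions, 11 of 17 were lower in the BNST of formalin mice, 9 in CFA mice and 4 in controls, beside 14.5%, 17.4% and 12% of all genes, and none was higher.

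The change after CFA differed between the regions for 4 of these 17, beside 3.02% of all genes tested lower and 1.15% higher. Among them, Sptbn4 (−0.56) and Nedd4l (−0.82) had the lower change in the BNST, and the adhesion molecule Cntn1 (0.52) had the higher change there. For formalin it differed for Fgf14 (−0.64, edgeR adjusted p = 0.032), an intracellular channel-binding factor, beside 0.158% of all genes tested. Of 4 genes of the sodium leak channel, Unc79 was called lower in the BNST after CFA (−0.69, edgeR adjusted p = 0.00017), beside 7.06% of all genes tested. Its change differed from that in the mPFC (−0.81, edgeR adjusted p = 0.0031). None of 6 sodium pump subunits was called between treatments in either region.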

How the data were processed

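Messenger RNA libraries of BNST and mPFC were made by the authors and read as 150 bp pairs. Trimming was by Trimmomatic 0.39, alignment to GRCm38 (mm10) by HISAT2 2.2.1, sorting by SAMtools and counting per gene by featureCounts 2.0.1. What the authors deposited is a table of whole, unscaled counts (55401 identifiers, 14781315 to 23408503 counts per library). The strand setting of the counting is not given in the sources used here. GENCODE for GRCm38 supplied the names, coordinates and exon lengths. It gave no symbol for 260 identifiers.

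Counts were tested in R 4.3.3 with edgeR 4.0.16, by a quasi-likelihood model of all 18 libraries and 6 groups (12 residual degrees of freedom) after filterByExpr (minimum count 10, minimum total 15) and TMM scaling. P-values were adjusted by Benjamini-Hochberg over the 18994 genes tested. Within a region they measure a difference against the spread between mice, with the spread of each gene estimated over both regions together. Between libraries of a group, chi-square per degree of freedom was 7.49 to 73.4 in the BNST and 3.52 to 10.0 in the mPFC. Apart from some controls, both regions came from the same brains, which this model does not use. The 8 genes and all lists were chosen with earlier results of these data known. All 8 were named in each of 11 comparisons, and of the lists every called gene could be named, except that some genes counted in them are not reported here. Likeness took, for a gene whose group means of log2 CPM (prior count 2) span at least 1, the 3 nearest genes with a mean of at least 5 CPM. TPM used the union of exons. Promoters came from RefSeq. The model was also run on simulated counts, and the outcome of that run is not given here.

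Lanes and animal numbers came from column heads of the supplementary tables, joined to the libraries by equal counts, and those tables' fold changes and p-values were not used. By these numbers the regions share 3 formalin, 3 CFA and 2 control animals, and the animal was a block in a second fit of every comparison between regions. Libraries of the same animal deviated with a correlation of −0.03 to 0.17 (8 pairs). Those of the same replicate number and region deviated with −0.19 to 0.31, above 0.1 in 4 of 18 pairs, which was not taken as a pairing. No 2 libraries of a group agreed within sampling noise (chi-square per degree of freedom 3.52 to 73.4). Alternatives were DESeq2 1.42.0, limma-voom (limma 3.58.1), RLE factors, 2 other filters, fewer libraries, blocks, other thresholds, another gene length and leaving out each library.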

Additional observations from a re-analysis of the deposited data

Results flagged for a closer look

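Groups of 3 libraries were not searched for a single library apart from its group. In 4 results, a change differed between the regions by the interaction test. The change of Scn3a after formalin was lower in the BNST than in the mPFC by a log2 difference of −0.64, which was not called with the animal as a block (adjusted p = 0.12, edgeR). After CFA, the changes of Scn3a (−0.53), Scn3b (−0.82) and Scn4b (−2.78) were lower in the BNST than in the mPFC. The changes behind the Scn3b value had opposite signs, −0.45 in the BNST and 0.37 in the mPFC, and neither was called by itself.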

How the results depend on the processing

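Of 2552 values of the 8 genes under the alternatives, none reversed with a call, 54 lost and 28 gained a call, and 43 changed sign without a call on either side. The replicate block left 0 of the 8 genes called in the region difference of the formalin change (1 without it, Scn3a at an adjusted p of 0.08), ended the call of Scn7a between the regions of CFA mice (0.49) and changed no other call. The animal number as a block, in the region differences chosen after seeing the data, ended the same calls (0 genes in the region difference of the formalin change, Scn3a at an adjusted p of 0.12, and Scn7a at 0.49) and no other.

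In the BNST, formalin against control gave 1 gene, 0 with the 9 libraries of the region, 2 without a minimum fold change and 0 with glmTreat, which tests against the minimum fold change. Within lane 2 the count was also 1, but the gene was Scn3b (−0.52) in place of Scn7a. CFA against control gave 3 genes, 5 without the minimum and 1 with glmTreat. Formalin against CFA gave 1 gene, and 0 with the region's 9 libraries. In the mPFC, formalin against control gave 0 genes, but Scn7a was called, a count of 1, with DESeq2, without the filter on low counts, with only the groups compared, with the region's 9 libraries and within lane 2. Formalin against CFA in the mPFC gave 0 genes, and 1 with DESeq2, the groups compared or the region's 9 libraries. Between regions, controls gave 3 genes and 5 without the minimum, and CFA mice gave 4 and 1 with glmTreat. The region difference of the formalin change fell to 0 with glmTreat, and that of the CFA change, 3 genes, to 1 within lane 2 and 0 with glmTreat.

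Leaving out 1 library at a time gave 0 to 2 genes for formalin and 3 to 4 for CFA against control in the BNST, 1 to 2 for formalin against CFA there, and in the mPFC 0 to 1 for formalin against control and 0 to 0 for both other comparisons. Between regions it gave 3 to 4 in controls, 3 to 3 in formalin mice and 2 to 4 in CFA mice, and for the region differences 0 to 1 (formalin) and 2 to 3 (CFA). The lowest count in CFA mice came without BNST CFA replicate 3. The cause of these shifts was not tested.

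With the longest transcript as gene length, the share of Scn7a in α subunit TPM of controls was 1.18% in the BNST and 0.96% in the mPFC, that of Scn2a 44.2% in the mPFC, and those of Scn2b and Scn3b in the β pool 58.5% and 30.5% there. Scn7a, with 118 to 365 counts per library, is the gene most limited by depth.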

Other observations

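Further cell type markers were counted by the same thresholds, as values beside the BNST results. Of all genes tested there, 4.89% were higher and 7.06% lower after CFA, and 0.195% were higher after formalin. GABAergic neurons had Dlx5 and Dlx6 of 8 markers lower after CFA in the BNST. Fast-spiking interneurons had Pvalb of 5 higher there, oligodendrocytes Ermn of 10 higher and Opalin lower, endothelium Slc2a1 of 10 higher after either agent, BNST neurons Crh and Tac2 of 10 higher, and choroid plexus Folr1 of 10 higher after CFA. None of 9 cortical pyramidal, 6 oligodendrocyte precursor, 9 microglia or 6 fibroblast markers tested was called against control in the BNST. In the mPFC only oligodendrocytes had calls against control. There, 3 of 10 were lower after CFA, Mog and Opalin among them, beside 0.295% of all genes tested.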
